A study of Mus musculus with 2 samples.

Results

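The 38 genes described here encode enzymes that oxidise fatty acids in mitochondria and peroxisomes, enzymes of ketone body metabolism, and the peroxisome proliferator-activated receptors (PPARs). They were chosen by name, from knowledge of the pathway, with earlier results of these data known. The array annotation names 18193 genes by a probe set of their own. The RNA came from crypts of the mouse small intestine. The control pool held RNA of 5 Lpcat3 F/F mice, in which both alleles of Lpcat3 carry loxP sites. The knockout pool held RNA of 5 mice labelled Lpcat3F/F, Villin-CreERT2, which also carry a Cre recombinase that tamoxifen activates and that the Villin promoter drives in intestinal epithelium. All mice were 8 to 10 weeks old at the start and were given 1 mg of tamoxifen a day for 5 days by intraperitoneal injection, and crypts were collected 2 weeks afterwards. Lpcat3 encodes an acyltransferase that places polyunsaturated fatty acids into membrane phospholipids.

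Each pool was read on 1 array, so the groups have no replicates, no test of genotype was made and no p-value is given. Deletion of Lpcat3, the presence of Cre, the pool of mice and the array cannot be told apart, because the controls received tamoxifen but carried no Cre. Values are MAS5 signal intensities, and each gene is given by its brightest probe set, as a log2 ratio of the knockout over the control signal. A signal below 92.9, the median of all probe sets on both arrays, was treated as not measured. The technical error of a log2 ratio had an SD of 0.28, estimated in 4582 genes by comparing the 2 brightest probe sets of each. In the 2211 of them whose 2 probe sets both averaged at least 451, the 75th percentile of signals, the SD was 0.22. The value of 0.28 is used below for bright and dim genes alike. Neither value covers variation among mice or pools. In these bulk samples, fewer cells of a type and less RNA per cell cannot be told apart.

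Long-chain fatty acids enter mitochondria as carnitine esters and are shortened there in a repeated cycle of dehydrogenation, hydration, a second dehydrogenation and thiolytic cleavage. Very long and branched chains, and the side chains of bile acid precursors, are first shortened in peroxisomes. The acetyl-CoA formed can be burned, or turned into ketone bodies that other cells take up and use. PPARs are nuclear receptors that bind fatty acids and their derivatives and switch on many genes of these pathways, and the intestinal epithelium, which meets dietary fat, expresses them.

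The labels were checked first. The Lpcat3 signal was 4691 for controls against 928 for knockouts (log2 ratio -2.34). All 11 markers of intestinal epithelium, among them Vil1 and Cdh1, were above the floor on both arrays, and their ratios lay between -0.43 and 0.24. Over all 11496 genes measured on at least 1 array, the median log2 ratio was -0.042.

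Most members differed little between the pools, as did most of all measured genes. Of the 38 members, 37 were above the floor on both arrays, and Acox3, a peroxisomal oxidase of branched chains, was below it on both (71.5 in control, 72.4 in knockout). The median log2 ratio of the 37 was 0.050. Of these, 24 lay within 1 SD of the probe-set error (64.9%, against 58.0% of all measured genes). Within 1.5-fold lay 32 of the 37, and 9944 of all 11496 measured genes. A difference of 1.5-fold is 2.10 SDs of the probe-set error. The log2 ratios themselves had an SD of 0.45 over the 37 members and 0.44 over all measured genes.

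At least 1.5-fold higher in the knockout pool were 4 of 37 members (10.8%), Acox2, Acadl, Pparg and Acot1, and 4.76% of all measured genes passed the same fold in that direction. At least 1.5-fold lower was 1 member, Pdk4 (2.70%), where 8.74% of all measured genes did. A fold of 2 was passed by Acox2 and Acadl, in a direction in which 1.41% of all measured genes passed it. None of the 37 was at least 2-fold lower, as 2.32% of all measured genes were. Most members are bright, and 35 of the 37 reached 451, the 75th percentile of signals, on the brighter array. Of the 7322 genes that did so, 4.32% passed 1.5-fold upwards and 6.19% downwards, and 1.26% and 1.83% passed a fold of 2. Of the 35 members, 3 passed 1.5-fold upwards and 0 downwards, and 1 passed a fold of 2. The members left out by this mark are Acox2 and Pdk4, which have the highest and the lowest ratio. With 1 array a group, these shares describe the arrays, and the counts of members are small.

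**Figure D1:**
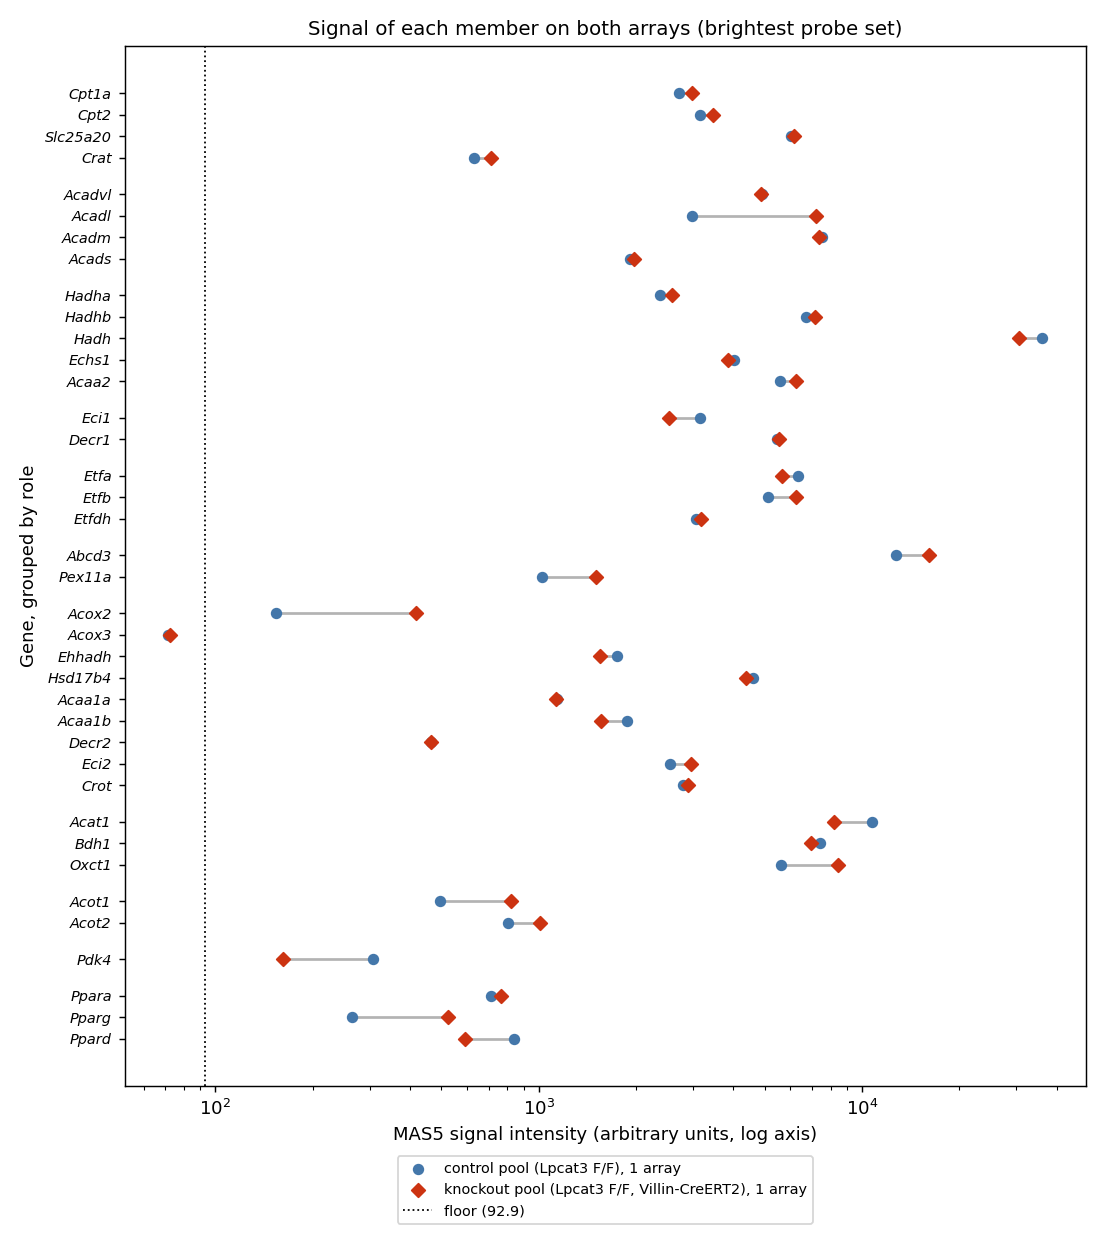
MAS5 signal intensity (arbitrary units, log axis) of each of the 38 members in the control pool (circles) and the knockout pool (diamonds), 1 array each, by its brightest probe set and grouped by role; the dotted line is the floor of 92.9. Most pairs nearly coincide, while Acadl (2989 and 7211), Acox2 (154 and 419), Pparg (265 and 524) and Pdk4 (308 and 162) are drawn apart, and Acox3 lies below the floor on both arrays.

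The carnitine shuttle, which moves long acyl chains into the matrix, stood within the probe-set error by its brightest probe sets. Cpt1a, the liver-type carnitine palmitoyltransferase that commits fatty acids to oxidation, had signals of 2715 in control and 2986 in knockout (log2 ratio 0.14). Cpt2, the inner-membrane transferase that returns the chain to coenzyme A, had 3152 and 3458 (0.13). Slc25a20, the carrier that exchanges acylcarnitine for carnitine, had 6023 and 6166 (0.034). The ratios were small, but each of their probe sets that passed the floor on both arrays was higher in the knockout pool. The dimmest probe sets gave the highest ratios, 0.39 for Cpt1a and 0.52 for Cpt2. Crat, a carnitine acetyltransferase of mitochondria and peroxisomes, had 632 and 715 (0.18).

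Among the acyl-CoA dehydrogenases, which carry out the first step of each cycle for chains of different length, Acadl was the 1 of 4 past 1.5-fold. Acadl, the long-chain enzyme, read 2989 in control and 7211 in knockout, which is 2.41-fold higher (log2 ratio 1.27). Only 0.678% of measured genes had a higher ratio. The other probe set of Acadl read 13.0 in control and 95.0 in knockout, at the edge of the floor, and so adds a bound of at least 1.02-fold and no second measure of the size.

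The enzymes that flank Acadl in chain length had almost equal signals in the 2 pools. Acadvl, the very-long-chain enzyme of the inner membrane, had 4889 and 4875 (-0.0040). Acadm, the medium-chain enzyme, had 7510 and 7372 (-0.027). Acads, for short chains, had 1917 and 1974 (0.042). Each of these was read by 1 probe set, as Acadl was above the floor, so the contrast between Acadl and its relatives rests on 4 probe sets.

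The promoters of Acadl and Acadm are set side by side, as those of relatives with unlike ratios. Whether the promoter sequence bears on either ratio was not tested. Shown are the 250 bases before each start of transcription, from RefSeq on GRCm38.p6, 5′ to 3′ on the strand of the gene. The Acadl stretch is chr1:66863310-66863559 and the Acadm stretch chr3:153944644-153944893, both on the minus strand. Capitals mark AGGTCA or its reverse complement TGACCT, the hexamer that PPARs and other nuclear receptors bind.
Acadl: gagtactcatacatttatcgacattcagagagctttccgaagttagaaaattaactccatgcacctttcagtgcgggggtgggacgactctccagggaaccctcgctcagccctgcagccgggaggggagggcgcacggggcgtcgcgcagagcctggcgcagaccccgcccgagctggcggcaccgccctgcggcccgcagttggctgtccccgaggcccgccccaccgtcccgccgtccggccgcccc
Acadm: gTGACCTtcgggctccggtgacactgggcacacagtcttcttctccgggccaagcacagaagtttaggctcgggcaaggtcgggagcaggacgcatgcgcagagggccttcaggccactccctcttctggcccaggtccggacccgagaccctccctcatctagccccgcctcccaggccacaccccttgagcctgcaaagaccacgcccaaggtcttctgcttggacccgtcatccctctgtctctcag
The Acadm stretch holds the hexamer once, as TGACCT, with its first base 249 bases before the start. The Acadl stretch, the promoter of the gene with the higher ratio, does not hold these letters. A match describes the sequence, and no match says only that the letters are not in this window.

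The hydratases, dehydrogenases and thiolases that complete the cycle were close to level. Hadha, a subunit of the trifunctional protein that handles long chains, had 2376 in control and 2576 in knockout (0.12). Hadhb, its partner with thiolase activity, had 6706 and 7141 (0.091) by the brightest probe set and 7103 and 6645 (-0.096) by the next, so its direction is not settled. Echs1, the short-chain hydratase, had 4016 and 3837 (-0.066). Acaa2, the matrix thiolase, had 5569 and 6266 (0.17), with 0.021 and 0.20 by its other probe sets.

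Hadh, the dehydrogenase for medium and short chains, gave probe sets that disagreed. The brightest read 35963 in control and 30573 in knockout (-0.23), and the next 17285 and 12266 (-0.49). The dimmest read 201 and 408, which is 1.02 in the other direction. The first is a signal above 20000 on both arrays. The mean over all probe sets of Hadh was 0.096, opposite in sign to its brightest.

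Auxiliary enzymes that prepare unsaturated chains for the cycle were level or slightly lower. Eci1, an enoyl-CoA isomerase (Dci on older lists), had 3149 in control and 2524 in knockout (-0.32), the lowest ratio among the 17 mitochondrial members. Decr1, the mitochondrial dienoyl-CoA reductase, had 5462 and 5532 (0.018), with -0.23 by its other probe set. The electron transfer flavoproteins pass electrons from the dehydrogenases to the respiratory chain. Their subunit genes went opposite ways by small amounts. Etfa had 6323 and 5650 (-0.16), Etfb had 5136 and 6236 (0.28), and Etfdh, the membrane enzyme that reoxidises them, had 3073 and 3184 (0.051).

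**Figure D2:**
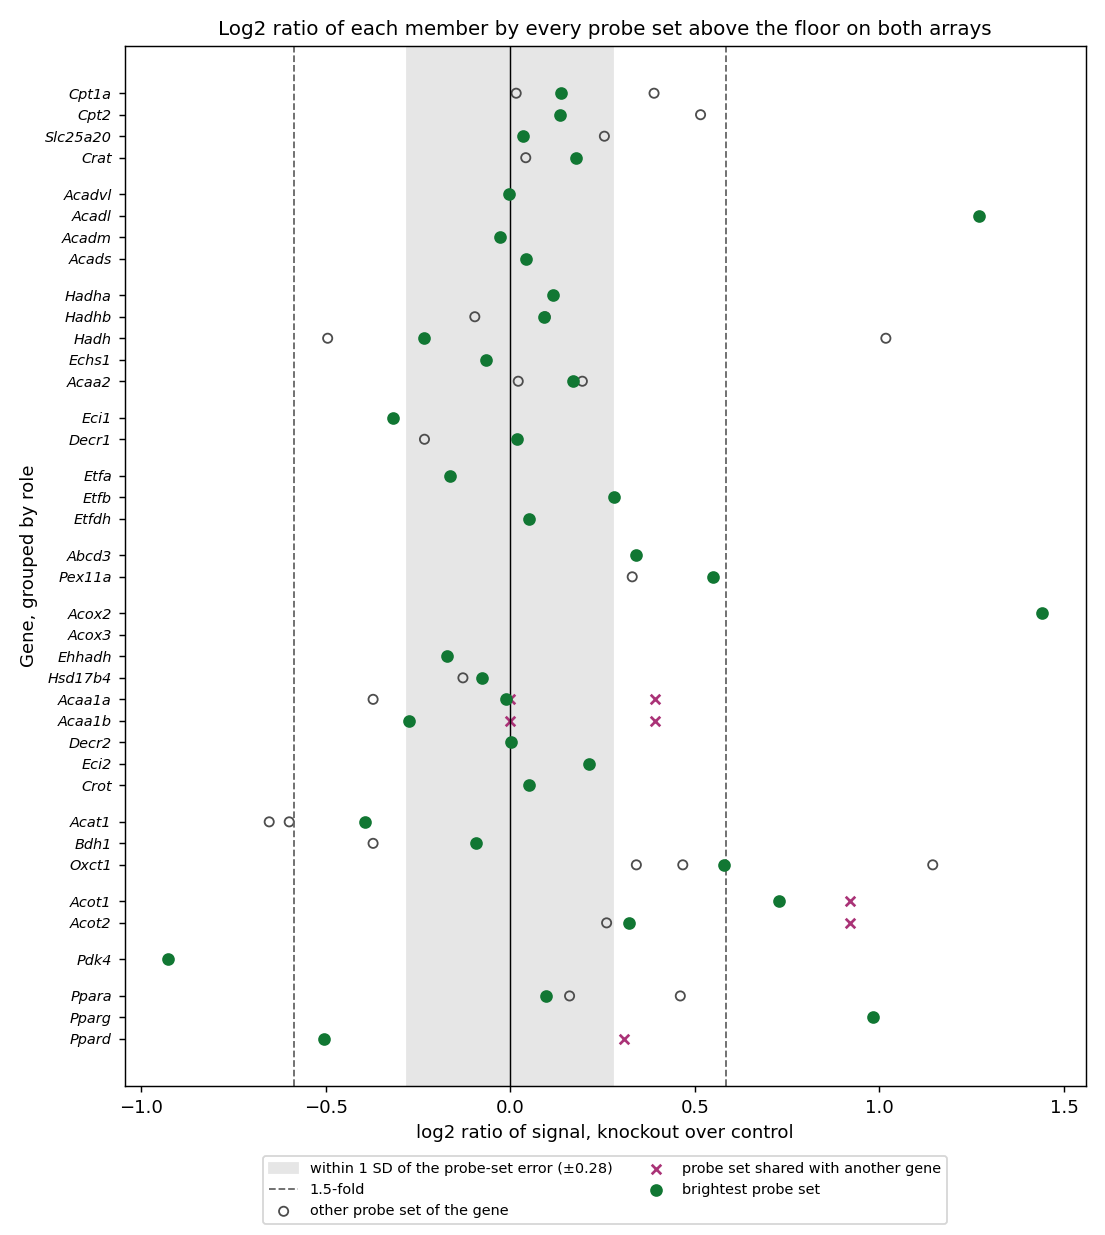
Log2 ratio of signal (knockout over control, x axis) of each member (y axis, grouped by role) by its brightest probe set (filled), its other probe sets (open) and probe sets shared with another gene (crosses), all above the floor on both arrays; the grey band is 1 SD of the probe-set error (0.28 either way) and dashed lines are 1.5-fold. Most filled points lie in or near the band, Acox2 (1.44) and Acadl (1.27) lie farthest to the right and Pdk4 (-0.93) farthest to the left, and the probe sets of Hadh spread from -0.49 to 1.02.

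In peroxisomes, Acox2 had the highest ratio of the 37 members. Acox2 encodes an oxidase that takes branched chains and the side chains of bile acid precursors. It read 154 in control and 419 in knockout, which is 2.71-fold higher (log2 ratio 1.44), and 0.461% of measured genes had a higher one. Both signals are low, and with the floor at the 70th percentile of signals (318) the control value falls below it and the gene is only at least 1.32-fold higher. It was read by 1 probe set.

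Genes of peroxisomal import and proliferation were both higher by their brightest probe sets, by less than 1.5-fold. Abcd3, a transporter that carries acyl-CoA into the peroxisome, had 12742 in control and 16132 in knockout (0.34). Its other probe set went the other way, with 103 in control and 65.3, below the floor, in knockout, and the mean of both ratios was 0.098. Pex11a, a membrane protein of peroxisome division and a known target of PPAR alpha, had 1025 and 1499 (0.55), and 951 and 1195 (0.33) by its other probe set.

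The other enzymes of peroxisomal oxidation stayed near level. Ehhadh, the bifunctional enzyme of straight chains and a strong PPAR alpha target in liver, had 1741 in control and 1546 in knockout (-0.17). Hsd17b4, the bifunctional enzyme of branched chains, had 4603 and 4362 (-0.078), with -0.13 by its other probe set. So the oxidase Acox2 and the enzyme that acts after it on the same substrates differed in ratio by more than the probe-set error.

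The peroxisomal thiolases Acaa1a and Acaa1b are close relatives, and 2 probe sets read both. The brightest shared probe set read 5022 in control and 5019 in knockout (-0.00078), and the other 1361 and 1788 (0.39). By probe sets named for 1 gene, Acaa1a had 1143 and 1135 (-0.010) and Acaa1b had 1881 and 1555 (-0.27). A second probe set of Acaa1a gave -0.37, so the readings for this pair ran from -0.37 to 0.39.

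The remaining enzymes showed little difference. Decr2, the peroxisomal dienoyl-CoA reductase, had 465 and 466 (0.0019). Eci2, an isomerase found in peroxisomes and mitochondria (Peci on older lists), had 2549 and 2956 (0.21). Crot, which loads shortened chains onto carnitine for export to mitochondria, had 2797 and 2895 (0.050).

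The promoter of Acox2, the member with the highest ratio, is shown for its most upstream start, at chr14:8259020-8259269 on the minus strand, again as the 250 bases before the start.
Acox2: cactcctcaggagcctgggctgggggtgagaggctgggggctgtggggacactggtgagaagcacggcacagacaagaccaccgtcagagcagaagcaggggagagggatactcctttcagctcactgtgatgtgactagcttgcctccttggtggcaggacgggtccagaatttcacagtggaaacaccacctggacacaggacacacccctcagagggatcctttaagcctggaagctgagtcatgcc
This stretch holds neither AGGTCA nor its reverse complement, and neither does that of the second start of Acox2 in RefSeq.

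Set against each other, mitochondrial and peroxisomal members had nearly equal medians. The 17 mitochondrial members of fatty acid oxidation had a median log2 ratio of 0.042, with 11 above 0 and 6 below. The 10 measured peroxisomal members had a median of 0.026, with 6 above 0 and 4 below. Of all measured members 62.2% were above 0, and of all measured genes 44.9%. The difference of the medians was 0.017, and after quantile normalisation it was -0.047, so its direction is not settled. Each set held 1 member at least 1.5-fold higher, Acadl and Acox2, and neither held one 1.5-fold lower. Of all measured genes, 4.76% were that much higher and 8.74% lower, and the sets are too small to tell their counts from these shares. No test of the difference was made, since genes are not replicates of a condition.

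The 3 ketone body members went different ways, each with its probe sets in 1 direction. Oxct1, the transferase with which cells use ketone bodies, had 5630 in control and 8407 in knockout (log2 ratio 0.58, 1.49-fold higher), just under the 1.5-fold mark. Its other probe sets gave 0.47, 1.14 and 0.34, so all 4 were higher. Acat1, the mitochondrial thiolase that both makes and splits acetoacetyl-CoA and also acts in isoleucine breakdown, had 10746 and 8182 (-0.39). Its other probe sets gave -0.60 and -0.65, so all 3 were lower. Bdh1, which interconverts acetoacetate and hydroxybutyrate, had 7407 and 6948 (-0.092), with -0.37 by its other probe set.

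In 3 members, Oxct1, Acat1 and Pex11a, every one of several probe sets differed in 1 direction by more than 1 SD of the error. Of the 16 members with more than 1 probe set past the floor on both arrays, all probe sets were higher in 9, all were lower in 4, and the probe sets of 3 (Hadhb, Hadh and Decr1) were mixed. The other 21 rested on 1 such probe set, and these include all 5 members past 1.5-fold.

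Acyl-CoA thioesterases release free fatty acids from coenzyme A, and both members were higher. Acot1, the cytosolic form, had 495 in control and 820 in knockout (log2 ratio 0.73, 1.66-fold higher). Acot2, the mitochondrial form, had 805 and 1007 (0.32). A probe set that reads both genes gave 305 and 578 (0.92). All 3 readings of this paralogue pair given here were higher in the knockout pool.

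Pdk4, the kinase that shuts pyruvate dehydrogenase when fatty acids are burned, had the lowest ratio of the 37. It read 308 in control and 162 in knockout, which is 1.90-fold lower (log2 ratio -0.93), and 2.86% of measured genes had a lower one. It was read by 1 dim probe set, and with the floor at the 70th percentile it was not measured on either array.

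The 3 receptors did not differ in the same direction. Pparg, the receptor best known from fat cells and also present in gut epithelium and macrophages, had 265 in control and 524 in knockout (log2 ratio 0.98, 1.98-fold higher) by its 1 probe set. Ppara, the receptor that drives oxidation genes in fasting, had 714 and 764 (0.096), with 0.46 and 0.16 by its other probe sets. Ppard, a widely expressed receptor studied in crypt stem cells of mice on high-fat diets, had 841 and 593 (-0.51, 1.42-fold lower). A dim probe set that Ppard shares with another gene gave 0.31, so the direction of Ppard rests on 1 probe set.

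Markers of other cell types that express PPAR gamma are given beside the value of Pparg. Of 6 adipocyte markers with a probe set, 5, among them Adipoq, Lep and Retn, were below the floor on both arrays, and Cidec, a lipid droplet protein, had 321 and 627 (0.96). Of 10 macrophage markers, 7 passed the floor on 1 array or both, 5 of them higher and 2 lower in the knockout pool. The brightest probe set of Csf1r gave 2.53 and another 0.65, and C1qa was at least 2.64-fold higher, whereas Lyz2 was at -0.38 and Cd14 at -0.40. The summed signal of the 10 was 4312 in control and 4339 in knockout. The part of macrophages in the value of Pparg was not tested.

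RefSeq lists 3 starts for Pparg, and the stretches before the first pair are shown because each holds the receptor hexamer close to the start. They lie at chr6:115360894-115361143 and chr6:115362099-115362348 on the plus strand. The promoter of Pdk4, at chr6:5496279-5496528 on the minus strand, is set beside them as that of the member with the lowest ratio.
Pparg first start: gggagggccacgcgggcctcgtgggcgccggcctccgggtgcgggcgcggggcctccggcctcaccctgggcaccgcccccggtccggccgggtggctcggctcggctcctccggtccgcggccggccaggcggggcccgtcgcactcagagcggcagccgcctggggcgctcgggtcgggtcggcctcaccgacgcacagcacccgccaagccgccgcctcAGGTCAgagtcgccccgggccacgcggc
Pparg second start: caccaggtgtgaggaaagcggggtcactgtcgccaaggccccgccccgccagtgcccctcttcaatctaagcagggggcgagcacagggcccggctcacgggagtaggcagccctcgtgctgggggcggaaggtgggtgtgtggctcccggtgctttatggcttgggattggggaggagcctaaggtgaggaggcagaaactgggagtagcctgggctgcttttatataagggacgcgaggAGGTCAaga
Pdk4: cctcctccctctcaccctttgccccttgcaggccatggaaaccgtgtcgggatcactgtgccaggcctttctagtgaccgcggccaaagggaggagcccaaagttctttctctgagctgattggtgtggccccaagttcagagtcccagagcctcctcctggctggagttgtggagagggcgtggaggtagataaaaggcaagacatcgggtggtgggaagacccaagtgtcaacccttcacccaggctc
In Pparg the first base of AGGTCA lies 28 bases before the first start and 9 bases before the second. The stretch before the third start of Pparg, not shown, has no match, and neither has the Pdk4 stretch. The array value of Pparg does not tell which start was used.

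Over all members, the hexamer was about as common as in other promoters. The search covered AGGTCA on both strands, from 250 bases before to 50 after each start, in 38 starts of the 33 members with a RefSeq entry. It was found at 6 starts (15.8%) of 5 genes, Cpt1a, Acadvl, Acadm, Echs1 and Pparg, against 16.3% of all 32851 promoters. The exact direct repeat, AGGTCA followed by any 1 base and AGGTCA again, overlaps the hexamer matches. It was in none of the 38 and in 0.0396% of all promoters. So rare a sequence is unlikely in 38 starts whatever the genes, and its absence says nothing about the members. Of the 5 genes with a match, Pparg was the 1 past 1.5-fold. Of all measured genes, 4.76% were at least that much higher and 8.74% lower, and 5 genes are too few to compare with these shares. Whether a match bears on the ratio was not tested. Crat, Acaa2, Decr1, Hsd17b4 and Acat1 had no entry.

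Other genes of these pathways, from lists written from textbook knowledge, are given by counts. Of 18 further genes of mitochondrial oxidation and related acyl-CoA breakdown that were measured, 1 was at least 1.5-fold higher and 1 lower, with a median of -0.15. Of all measured genes, 4.76% were that much higher and 8.74% lower. The thioesterase gene Acot9 was highest (1380 and 2569, 0.90). Acsm3, a medium-chain acyl-CoA synthetase, was lowest (412 and 196, -1.07), followed by Acad12 at -0.55 and Pcca, a subunit of propionyl-CoA carboxylase, at -0.40.

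Most further peroxisomal genes lay within 1.5-fold, as most of all measured genes did. Of 25 measured, 2 were at least 1.5-fold higher and 1 lower, with a median of 0.072. The shares of all measured genes were 4.76% and 8.74%. Far1 (0.78) and Agps (0.61) were highest, both of which act in the synthesis of ether lipids. The second probe set of Agps gave -0.17. Cat, the catalase that removes hydrogen peroxide made by peroxisomal oxidases, was lowest, with 4081 in control and 2698 in knockout (-0.60), and -0.50 by its other probe set.

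Of 4 further genes of ketone body handling, Slc16a6, a carrier linked to the export of ketone bodies from liver, had 722 and 1266 (0.81). Aacs, which turns acetoacetate into acetoacetyl-CoA for lipid synthesis, had 606 and 887 (0.55), with 0.60 by its other probe set. Slc16a1, a carrier of lactate and ketone bodies, was level (7691 and 7568, -0.023). Bdh2, a relative of Bdh1, had 52.7 in control, below the floor, and 103 in knockout, so it is only at least 1.11-fold higher. The median of the 4, which averages that bound with Aacs, was 0.35, and a floor at the 30th percentile gave 0.68.

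Genes of PPAR action outside the members went both ways, beside 4.76% of all measured genes at least 1.5-fold higher and 8.74% lower. Of 16 measured receptor partners and cofactors, none was at least 1.5-fold higher and 1, the corepressor Nrip1, was lower (2932 and 1907, -0.62). Their median was -0.064, with the coactivator Ppargc1b highest at 0.37. Of 27 PPAR targets with a probe set that are not members, 8 were below the floor on both arrays. Of the 19 measured, 3 were at least 1.5-fold higher and 3 lower. Their median of 0.13 is the value of Fabp3, a bound because its control signal lay below the floor, and floors at the 30th and 70th percentile gave 0.016 and 0.29. Cidec (0.96), Me1 (0.93) and Aqp3 (0.69) were highest, with Me1 at 0.083 by its dimmer probe set. Cd36, a fatty acid receptor, was lowest (584 and 120, -2.28), followed by Vnn1, a pantetheinase that responds strongly to PPAR alpha, at -1.20. Slc27a2, which activates very long chains, was at -0.82. Every probe set of Cd36 and Vnn1 that passed the floor was at least 2-fold lower.

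**Figure D3:**
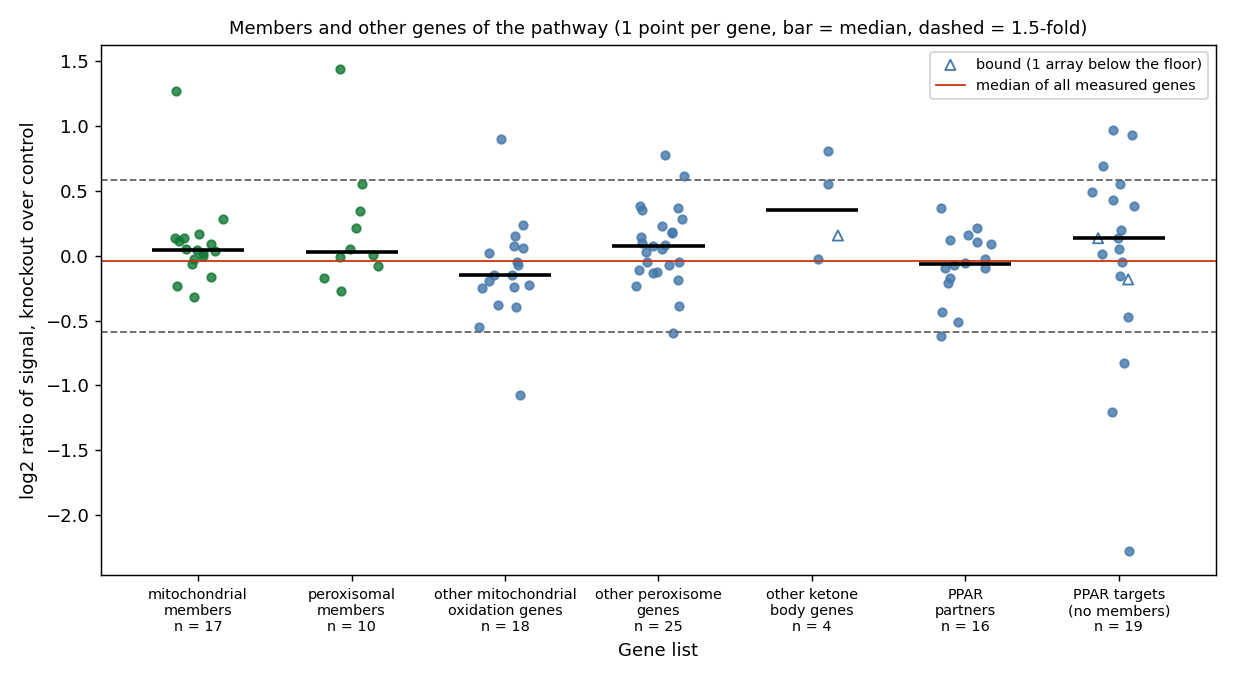
Log2 ratio of signal (knockout over control, y axis) of the mitochondrial and peroxisomal members and of 5 lists of other pathway genes (x axis), 1 point per measured gene, with open triangles for bounds, black bars for medians, dashed lines at 1.5-fold and a red line at the median of all measured genes (-0.042). Medians run from -0.15 (other mitochondrial oxidation genes) to 0.35 (other ketone body genes, n = 4), and PPAR targets spread most widely, from -2.28 to 0.96.

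Absorptive enterocytes oxidise and export dietary fat, so their markers are given beside these values. All 13 villus enterocyte markers with a probe set were above the floor on both arrays, with a median of 0.14. Of the 13, 3 were at least 1.5-fold higher and 3 lower, where 4.76% and 8.74% of all measured genes were. Their summed signal was 244726 in control and 282359 in knockout. Rbp2 was at 1.20, Mttp at 0.66 and Alpi at 0.62, whereas Lct was at -1.36, Mep1a at -1.20 and Apoc3 at -0.94. The other probe set of Mep1a gave -0.43. T and natural killer cell markers were all lower by their brightest probe sets, 9 of the 9 measured. Cd7 among them is a bound, and the 4 probe sets of Cd8a above the floor ran from -2.03 to 0.33. The summed signals of the 11 with a probe set were 42889 in control and 8886 in knockout. The part of either cell type in the members' values was not tested.

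The 5 members past 1.5-fold, and those just short of it, were recomputed with other floors, scalings and probe-set rules. Acox2 ran from 0.40 to 1.52 and Acadl from 0.65 to 1.30, where the lowest value of Acadl is its mean with the probe set at the edge of the floor. Pparg ran from 0.72 to 1.06, Acot1 from 0.64 to 0.79 and Pdk4 from -0.93 to -0.65. Oxct1 passed 1.5-fold after median centring (0.61) and as the mean of its probe sets (0.63), and Pex11a after quantile normalisation (0.59).

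**Figure D4:**
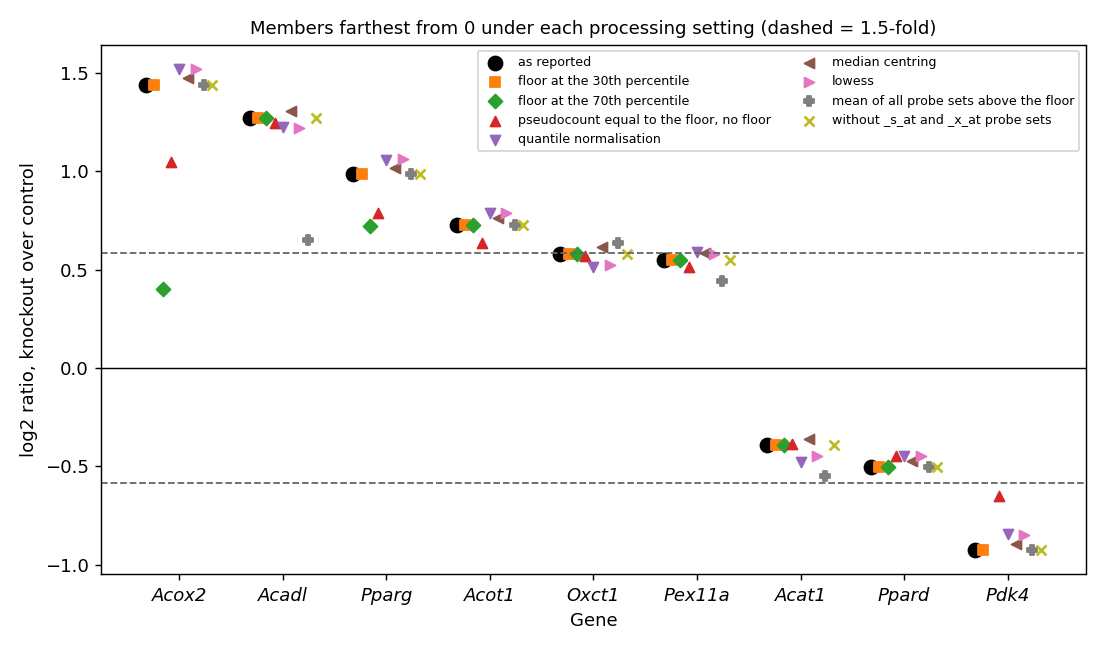
Log2 ratio (knockout over control, y axis) of the 9 members (x axis) with the ratios farthest from 0 under the reported setting (black circles) and each processing alternative (other symbols), with dashed lines at 1.5-fold. Every symbol of a gene lies on the same side of 0. The Acox2 value with the floor at the 70th percentile (0.40) is a bound, as is that of Pparg (0.72), and Pdk4 has no value there.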

How the data were processed

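The data are 1 table of 2 Affymetrix arrays with 45101 probe sets each, more than the smaller array that the design text names would hold. The deposited values are signal intensities on a linear scale, which the authors computed with MAS5, as the submitters' processing notes say, in a version not given in the sources used here. Trimmed by 2% at each end, the mean was 500.0 for both columns, so no further scaling was applied.

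The 64 control probe sets were left out. Of the other 45037, 34945 name 1 gene, 932 several and 9160 none here; genes were valued by the first kind only, and symbols were updated through Entrez identifiers to RefSeq on GRCm38.p6. Members and promoters were matched by symbol. Signals below the 50th percentile (92.9) were raised to it before log2 ratios were taken with numpy 2.4.6, so a gene below it on 1 array has a bound. The brightest probe set had the highest mean log2 signal. The error SD is that of the difference between the ratios of a gene's 2 brightest probe sets, divided by the square root of 2. Every member could be named, and of the other lists the 3 highest and 3 lowest genes; other genes named were chosen after their values were seen. The scripts were tested on simulated data. Alternatives were floors at the 30th and 70th percentile, a pseudocount, quantile normalisation, median centring, lowess (fraction 0.3), the mean of probe sets, and no _s_at or _x_at probe sets, and for the compartments another assignment of Eci2, Acot2 and the ketone body enzymes. The members and lists were chosen with earlier results of these data known. The number of arrays limits the precision.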

Additional observations from a re-analysis of the deposited data

How the results depend on the processing

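No paired analysis was possible because there is a single array per genotype, which also means that none could be left out. The median of the measured members stayed between 0.032 and 0.083, that of mitochondrial members between 0.0079 and 0.076 and that of peroxisomal members between 0.0080 and 0.060. The mitochondrial minus peroxisomal median ran from -0.047 to 0.032 over the 8 alternatives, so its sign depends on the setting. With Eci2 left out and the ketone body enzymes and Acot2 counted as mitochondrial, the peroxisomal median was 0.0019 and the difference 0.040. Between 3 and 5 members were at least 1.5-fold higher. The share of all measured genes that were so ran from 2.94% with the pseudocount to 8.22% with the floor at the 30th percentile. At that floor 4 of 38 members were at least 1.5-fold higher, so the excess over all genes was smaller than at the reported floor. With the floor at the 70th percentile 0 were lower (5.21% of all measured genes), because Pdk4 was then below it on both arrays. With the floor at the 30th and the 70th percentile the median of other ketone body genes was 0.68 and 0.55. That of other PPAR targets was 0.016 and 0.29, and 0.030 with the pseudocount. PPAR partners had a median of 0.035 as the mean of all probe sets. The ketone body list had 4 genes at the reported and at the lower floor, where Bdh2 is a value in place of a bound. The causes of the other shifts were not tested. No member past 1.5-fold changed sign under any of the 8 alternatives. The median of all measured genes lay between -0.051 and -0.0098 in every setting. All values are of 2 arrays, and Acox2, Pparg and Pdk4 are dim, so that with the floor at the 70th percentile the first pair are bounds and Pdk4 has no value.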
